A study of Homo sapiens with 8 samples.

Results

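The SR splicing factors are a family of 10 gene products described here across 8 nascent RNA libraries from 2 human colorectal cancer cell lines. The members were SRSF1, SRSF2, SRSF3, SRSF4, SRSF5, SRSF6, SRSF7, SRSF9, SRSF10 and SRSF11, found by symbol among the 18638 gene models of the deposited count tables, and all 10 were present in both tables. The family was selected on values of these same libraries, since fold changes in both cell lines were known when it was picked. Calls for the members are therefore given as a description of the fit across all genes, and no test was made over the family.

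DLD-1 cells carried the degron tag mAID together with mClover on POLR2A, the gene for the catalytic subunit RPB1 of RNA polymerase II, and a Tet-driven OsTIR1. Untreated controls were set against cells given 500 µM auxin for 14 h after 24 h of doxycycline, which induces the plant protein TIR1 that marks the tagged protein for destruction. Whether RPB1 was degraded was not tested, and its loss cannot be told apart from effects of auxin or doxycycline in this comparison. HCT116 cells carried the degron on TOP2A, a DNA topoisomerase, and untreated TOP2A-mAID controls were set against a TOP2B-/- TOP2A-mAID group, labelled as a knockout of the sister enzyme TOP2B. The labels of that group conflict, with titles that read as control, while a treatment field gives 14 h of auxin and the columns of the count table are named for auxin. The shared protocol gives the same 500 µM auxin after 24 h of doxycycline, so genotype, auxin and doxycycline cannot be told apart in this comparison, and whether TOP2A was degraded was not tested. All libraries were from asynchronous cells, and whether untreated cells were given doxycycline is not stated. Each of the 4 groups held 2 libraries, and nothing says that they came from separate cultures, so the spread between them may be technical. How many clones each engineered line comprised is not given in the labels.

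In factory-seq, RNA still held at sites of transcription is freed from nuclei by caspases and sequenced. Reads were counted over whole gene models, exons and introns together, so unspliced and spliced RNA were not told apart. Total counts were 62626875 and 36906755 in DLD-1 controls, 14183633 and 10739622 with auxin, and 32129400 to 36491540 in HCT116. Background was estimated as the median read density of silent gene models, extended over the counted length of all gene models. This estimate came to 2.24% and 9.02% of total counts in DLD-1 controls and 39.5% and 59.5% in the auxin libraries. It was 0.266% to 3.04% in the HCT116 libraries. Library depth and background thus moved with the auxin treatment. POLR2A was at 281 and 180 CPM in DLD-1 controls and 159 and 108 CPM after auxin, although a degron acts on the protein and not on the RNA. TOP2B was at 186 and 192 CPM in HCT116 controls and 135 and 132 CPM in the group labelled TOP2B-/-, so reads over this gene were fewer and not absent. Of epithelial and intestinal genes, EPCAM, CDH1, KRT8 and KRT18 had reads in every library, while the intestinal genes CDX2 and VIL1 were at 6.98 to 60.9 and 9.81 to 25.2 CPM of library totals in DLD-1 and at 4.202 to 5.40 and 0.219 to 0.840 in HCT116. In these bulk samples, fewer cells and less RNA per cell cannot be told apart.

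SR proteins bind exonic enhancers through RNA recognition motifs and recruit U1 snRNP and U2AF to neighbouring splice sites through domains rich in arginine and serine. SRPK and CLK kinases phosphorylate those domains, and the import receptor TNPO3 carries the proteins into the nucleus. SR genes are known for controlling their own output by including poison exons or retaining introns, which send the transcript to nonsense-mediated decay. All 10 members had at least 1 transcript of the nonsense-mediated decay class in GENCODE v44, matched by symbol, from 1 in SRSF5 and SRSF6 to 6 in SRSF7. The same held for 6816 of 16557 protein-coding genes tested in DLD-1, or 41.2%. A retained-intron transcript was annotated for 9 of the 10 members, the exception being SRSF6, against 53.1% of those genes.

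Gene length set how many bases the reads were spread over. SRSF2 was the shortest model, at chr17:76734115-76737411 in GRCh38 on the minus strand, and SRSF11 the longest, with 46337 bases at chr1:70205682-70252018 on the plus strand. SRSF4 covered 34388 bases at chr1:29147738-29182125 on the minus strand. SRSF1 covered 6428 bases at chr17:58000919-58007346 on the minus strand, and SRSF6 covered 5741 bases at chr20:43457864-43463604 on the plus strand. The model of SRSF2 shared 847 bases with MFSD11 on the opposite strand, and that of SRSF9 shared 2086 bases with GATC on the opposite strand. Whether counting used strand is not given in the sources used, so reads in those stretches could belong to either partner.

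Promoters are shown for SRSF1, whose level was highest in every group, for SRSF3, which was lower after auxin under every scaling and background setting run, and for SRSF6, which stood apart in HCT116. RefSeq promoter windows of build GRCh38.p14 were matched for 9 members; SRSF2 was not matched. The stretches below end where the deposited gene model or the RefSeq transcript begins, whichever came first, and run 5′ to 3′ on the gene's strand at chr17:58007347-58007496 for SRSF1 (minus strand), chr6:36594112-36594312 for SRSF3 and chr20:43457646-43457863 for SRSF6 (both plus strand). Capitals mark the matches described after them.
SRSF1: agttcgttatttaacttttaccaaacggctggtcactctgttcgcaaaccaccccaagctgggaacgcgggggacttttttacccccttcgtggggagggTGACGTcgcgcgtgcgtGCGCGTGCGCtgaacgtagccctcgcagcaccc
SRSF3: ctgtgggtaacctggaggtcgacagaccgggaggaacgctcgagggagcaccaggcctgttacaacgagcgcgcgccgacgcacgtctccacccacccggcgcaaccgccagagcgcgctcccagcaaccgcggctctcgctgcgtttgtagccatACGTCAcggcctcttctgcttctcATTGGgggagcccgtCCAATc
SRSF6: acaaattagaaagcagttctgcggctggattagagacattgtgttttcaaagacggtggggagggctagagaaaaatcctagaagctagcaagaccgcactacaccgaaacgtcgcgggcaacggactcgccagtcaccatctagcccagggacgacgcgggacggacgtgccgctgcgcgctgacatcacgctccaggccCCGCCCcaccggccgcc

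Short motifs were searched on both strands in the 250 bases upstream of each RefSeq start, and no match in the printed stretches overlapped another. The CRE-type letters TGACGT were found in 3 of the 9 members (SRSF1, SRSF3 and SRSF5) and in 7.1% of all 35116 windows. An NRF1-type sequence was found in 3 members (SRSF1, SRSF9 and SRSF10) and in 5.07% of windows. The ETS-type letters CGGAAG were found in 3 members (SRSF1, SRSF4 and SRSF5) and in 16.5% of windows, and the GC box GGGCGG in 3 (SRSF4, SRSF6 and SRSF7) and in 42.6%. The SRSF1 match to the ETS letters and a further SRSF6 match to the GC box did not lie within the printed stretches. SRSF3 was the one member with the CCAAT box CCAAT, at 2 places, and with the TATA box TATAAA, downstream of the printed stretch, against 32% and 10.7% of windows. No member window held the E-box CACGTG, found in 6.34% of windows. The member windows held 54.8% to 73.6% G and C, with a median of 62.4% against 58% over all windows. A match says that the letters are there and not that a factor binds.

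The 10 genes were among the more highly transcribed genes of both lines. Levels are given as CPM, read counts relative to library size with TMM scaling within a cell line, divided by the counted length in kb. In DLD-1 controls, SRSF1, a prototype SR protein and proto-oncogene, had the highest level, at 61.4 ± 1.20 CPM per kb (SD, n = 2). SRSF5 followed at 46.6 ± 2.19 and SRSF2 at 45.1 ± 3.88, and these neighbours overlapped over their libraries. SRSF6 was at 29.0 ± 0.578, SRSF7 at 20.7 ± 0.432 and SRSF3 at 16.9 ± 1.16. The lowest were SRSF10 at 10.6 ± 0.829, SRSF11 at 9.37 ± 0.558, SRSF4 at 8.53 ± 0.0491 and SRSF9 at 5.35 ± 0.258 CPM per kb, none of which overlapped its neighbour. Over all gene models in these controls, the members lay between the 93.6th percentile (SRSF9) and the 99.8th percentile (SRSF1).

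HCT116 controls had a similar order with SRSF1 further ahead. SRSF1 stood at 114 ± 3.56 CPM per kb (SD, n = 2) and SRSF2 at 74.8 ± 10.5. SRSF6 at 36.9 ± 3.79 and SRSF5 at 35.3 ± 2.84 overlapped, as did SRSF3 at 16.2 ± 1.39 and SRSF7 at 14.4 ± 1.42. SRSF10 was at 10.2 ± 0.738, ahead of SRSF9 at 6.68 ± 0.965, SRSF11 at 6.13 ± 0.224 and SRSF4 at 6.03 ± 0.166, and the last 3 were not separable by their libraries. The cell lines were scaled separately, so these levels are set side by side without a test.

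**Figure D1:**
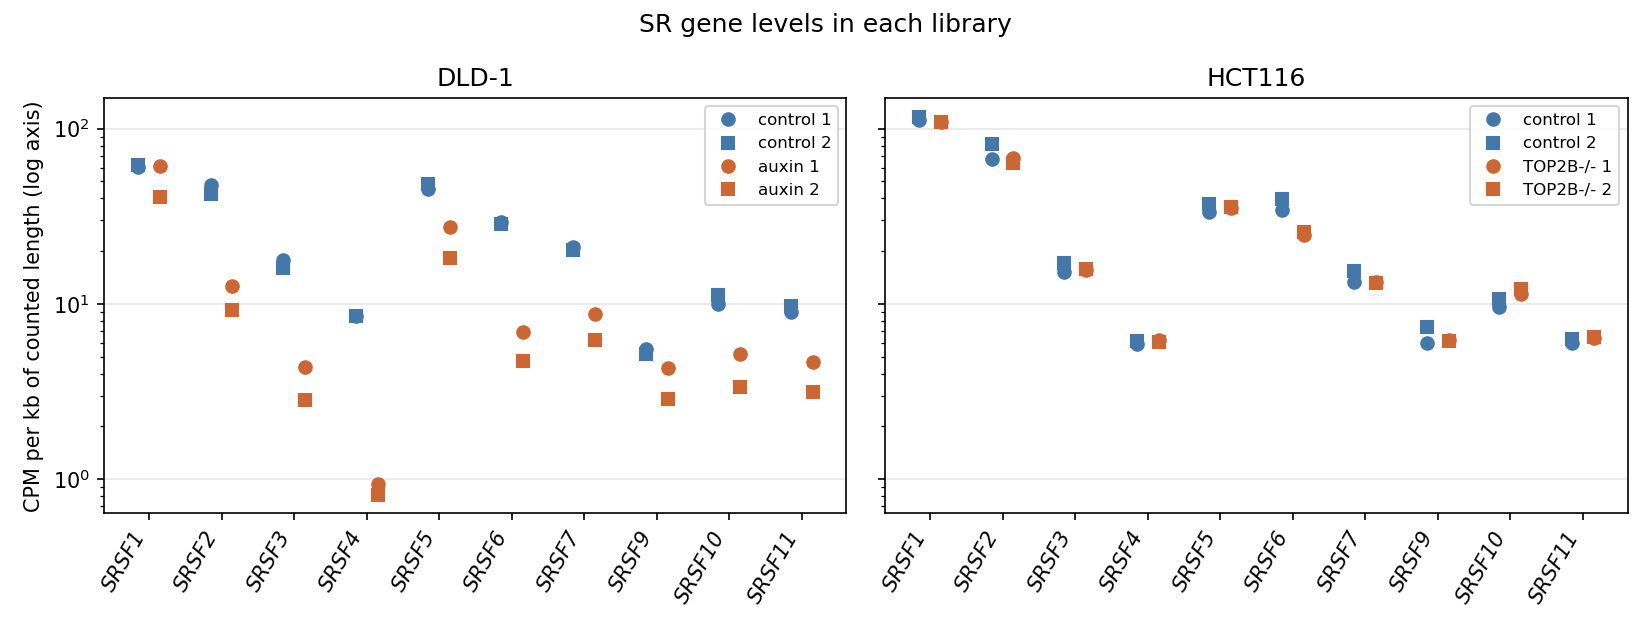
Level of each SR gene in each library, in TMM-scaled CPM per kb of counted length on a log axis, for DLD-1 (left) and HCT116 (right); circles and squares are libraries 1 and 2 of a group. The DLD-1 auxin points of SRSF4 sit at 0.945 and 0.818, the lowest values of the family, and those of SRSF1 at 61.3 and 40.9 overlap its controls at 60.5 and 62.2.

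In DLD-1 cells given auxin, edgeR's quasi-likelihood test at an adjusted p of 0.05 called 8 of the 10 SR genes lower and 0 higher. SRSF1 and SRSF9 were not called. DESeq2, and edgeR at an unadjusted p under 0.05, likewise gave 8 lower and 0 higher. Over all 17625 tested genes, DESeq2 called 6000 lower and 6188 higher. In edgeR, 12860 of them had an unadjusted p under 0.05 in either direction. The call was common in this comparison, since 35% of the 17625 tested genes were called lower and 32.2% higher. The member log2 fold changes had a median of −1.39 and ran from −3.27 to −0.27, while the median over all tested genes was −0.06. The 2 groups did not overlap, with auxin lower, for 9 members, against 46.3% of all tested genes. The other member, SRSF1, had groups that overlapped.

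Among the members with a pair of RNA recognition motifs, the largest difference was that of SRSF4, a long SR protein also known as SRp75. SRSF4 was at 295 and 292 CPM in the controls and at 32.5 and 28.1 CPM after auxin. All 4 libraries separated by group, and the log2 fold change was −3.27 (SE 0.18, adjusted p = 0.0042, edgeR). Background made up 30.1% and 49.7% of the SRSF4 reads in the auxin libraries, above the 14.4% or less of every other member.

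SRSF6, or SRp55, the close relative of SRSF4, was at 169 and 164 CPM in the controls and at 39.9 and 27.2 CPM after auxin. Its groups were well apart, with a log2 fold change of −2.31 (SE 0.24, adjusted p = 0.0045, edgeR). SRSF5, or SRp40, had a smaller difference. It was at 220 and 236 CPM in the controls and at 134 and 89.3 CPM after auxin, a log2 fold change of −1.03 (SE 0.25, adjusted p = 0.024, edgeR). Without auxin replicate 2, the adjusted p of SRSF5 was 0.054 (edgeR) and 7 members were called lower, against 16.9% of all genes in that fit.

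SRSF1 and SRSF9 made up the rest of this class and were the members that were not called. SRSF1 was at 389 and 400 CPM in the controls and at 394 and 263 CPM after auxin. One auxin library thus lay between the controls and the other below them, and the log2 fold change was −0.27 (SE 0.25, adjusted p = 0.368, edgeR), or −0.61 to 0.02 over the pairs of 1 control and 1 auxin library. SRSF9, a relative of SRSF1 also named SRp30c, was at 44.8 and 41.8 CPM in the controls and at 34.9 and 23.2 CPM after auxin. Its auxin libraries were both below its controls, with a log2 fold change of −0.57 (SE 0.26, adjusted p = 0.102, edgeR). Background made up 6.58% and 14.2% of its reads after auxin, and its overlapping partner GATC had a log2 fold change of −0.09.

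The 5 members with a single RNA recognition motif were all called lower, with log2 fold changes from −2.23 to −1.26, and 3 of the 5 with a pair were. With library totals these counts were 3 and 2, and after background subtraction 2 in each class, and the difference between the classes was not tested. SRSF3, the smallest SR protein and an adaptor for mRNA export, was at 180 and 163 CPM in the controls and at 44.6 and 28.6 CPM after auxin. Its log2 fold change was −2.23 (SE 0.27, adjusted p = 0.0055, edgeR). SRSF2, or SC35, was at 153 and 135 CPM in the controls and at 40.5 and 29.4 CPM after auxin. Its log2 fold change was −2.04 (SE 0.23, adjusted p = 0.0048, edgeR), while MFSD11, which shares bases with it on the other strand, was at −0.61 (adjusted p = 0.0504, edgeR).

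SRSF7, which like SRSF3 serves mRNA export and also carries a zinc knuckle, was at 166 and 161 CPM in the controls and at 69.4 and 49.4 CPM after auxin. Its log2 fold change was −1.46 (SE 0.22, adjusted p = 0.0087, edgeR). SRSF10, an SR protein that turns into a splicing repressor when dephosphorylated, was at 161 and 180 CPM in the controls and at 83.1 and 54.1 CPM after auxin, a log2 fold change of −1.32 (SE 0.26, adjusted p = 0.016, edgeR). SRSF11, also named p54, was at 416 and 452 CPM in the controls and at 217 and 145 CPM after auxin, a log2 fold change of −1.26 (SE 0.25, adjusted p = 0.016, edgeR). In all 5 genes both auxin libraries lay below both controls, and auxin replicate 2 was the lowest.

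**Figure D2:**
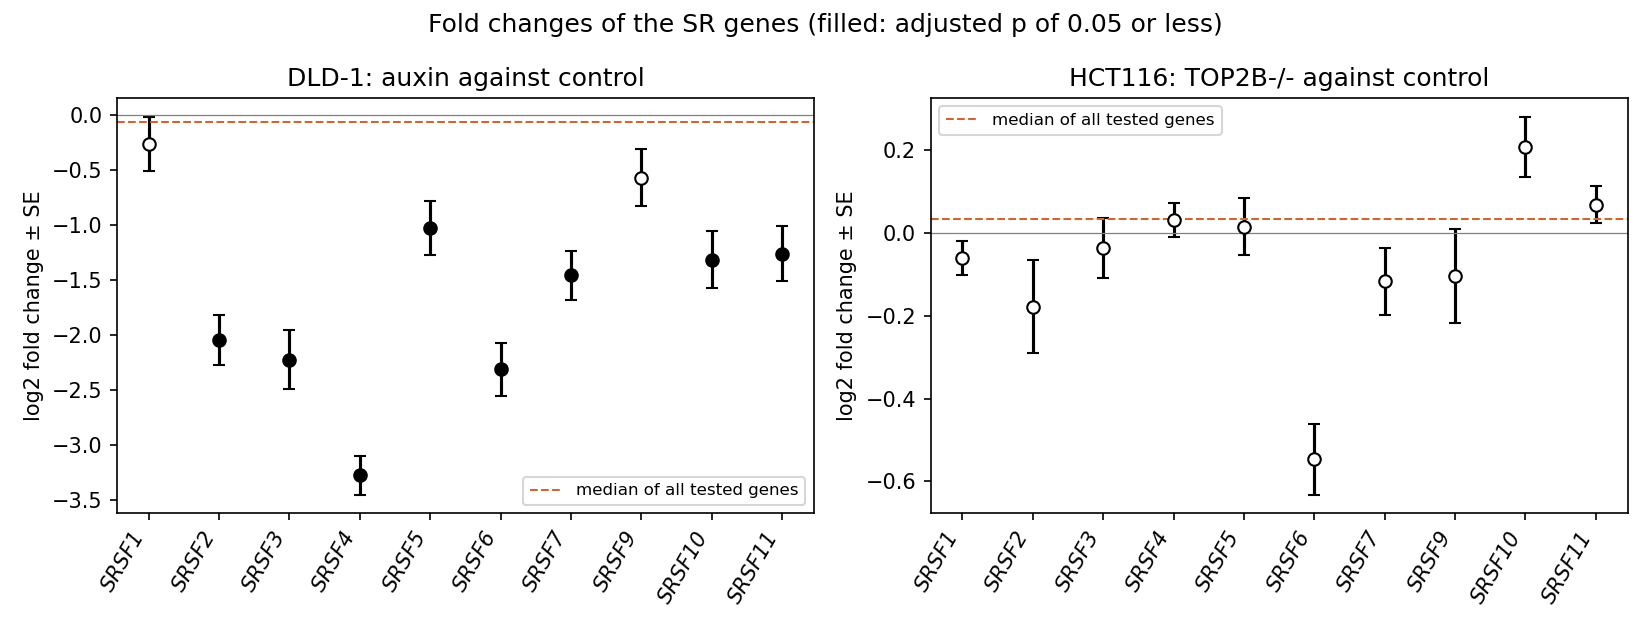
Log2 fold change of each SR gene with its SE, for auxin against control in DLD-1 (left) and TOP2B-/- against control in HCT116 (right, with a narrower axis); filled points were called and the dashed line is the median of all tested genes. In DLD-1 the points run from −3.27 (SRSF4) to −0.27 (SRSF1), and in HCT116 SRSF6 stands at −0.55 with the others between −0.18 and 0.21.

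The size of these differences, and for SRSF1, SRSF5 and SRSF9 their direction, changed with the treatment of scale and background. With library totals in place of TMM, the median of all genes was 0.57, the member median was −0.76, and 5 members (SRSF2, SRSF3, SRSF4, SRSF6 and SRSF7) were called lower. Of all genes 19.2% were then called lower and 42.8% higher. After subtraction of the background density from every count, 4 members were called lower and 2 were called higher, against 32.1% and 27.7% of the 14355 genes still tested. The member median was then −0.19, near the −0.16 of all genes. Lower were SRSF4 at −2.69, SRSF6 at −1.10, SRSF3 at −1.09 and SRSF2 at −0.78. Higher were SRSF1 at 1.02 (adjusted p = 0.0037, edgeR) and SRSF9 at 0.58 (adjusted p = 0.018, edgeR), and the remaining SRSF5 at 0.24, SRSF11 at −0.10, SRSF10 at −0.15 and SRSF7 at −0.22 were not called. SRSF2, SRSF3, SRSF4 and SRSF6 were thus called lower under all 3 settings. All of these values are relative to the other reads of a library, and absolute amounts of RNA were not tested.

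**Figure D3:**
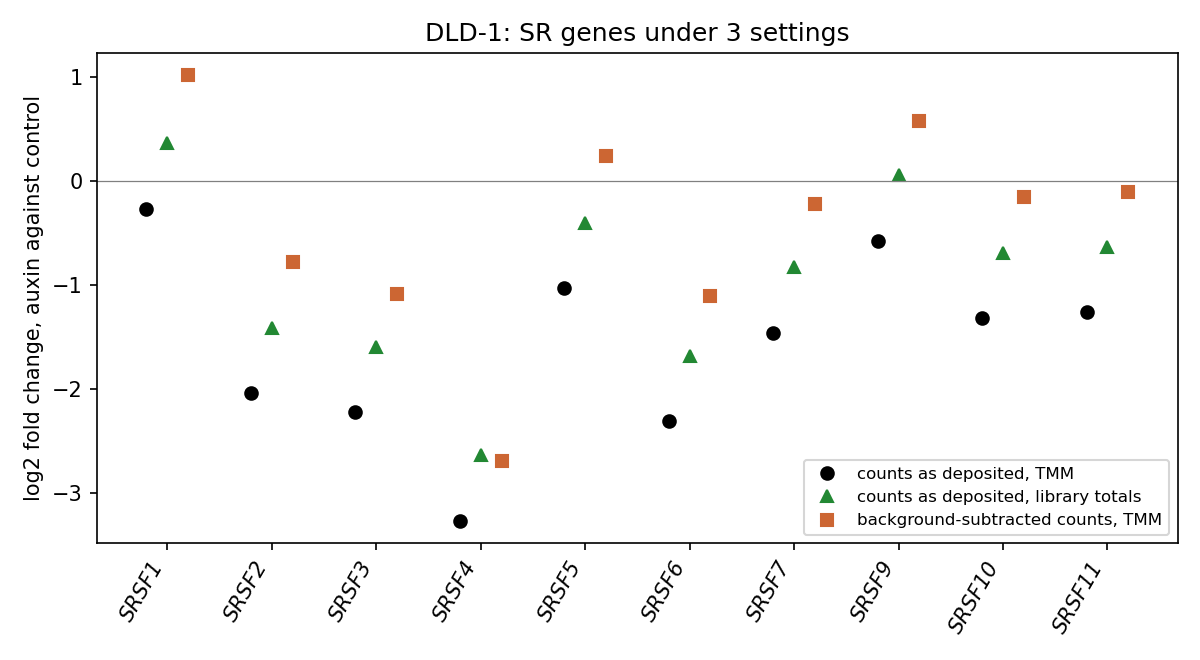
Log2 fold change of each SR gene in DLD-1, auxin against control, with TMM scaling (circles), with library totals (triangles) and after background subtraction (squares). The values of SRSF1 are −0.27, 0.36 and 1.02, those of SRSF9 −0.57, 0.06 and 0.58, and those of SRSF4 −3.27, −2.64 and −2.69.

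The share of each member among the reads of the family does not depend on library scaling. The shares given here include background, which made up as much as 49.7% of the SRSF4 reads in an auxin library. SRSF1 held 17.7% and 17.97% of the family reads in DLD-1 controls and 36.1% and 35.6% after auxin. SRSF4 went the other way, from 13.4% and 13.1% to 2.98% and 3.82%. SRSF6 held 7.70% and 7.37% in controls and 3.66% and 3.69% after auxin. These shares separated the groups by far more than the libraries of a group differed, while with 2 against 2 libraries no permutation of single values could reach 0.05.

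SRSF3 held 8.20% and 7.33% in the controls against 4.09% and 3.88% after auxin, and SRSF2 6.97% and 6.08% against 3.72% and 3.98%. SRSF9 had the smallest share in the controls, at 2.04% and 1.88%, and held 3.20% and 3.15% after auxin. SRSF5 was at 10.0% and 10.6% in controls and at 12.3% and 12.1% after auxin. The shares of SRSF11, at 18.95% and 20.3% against 19.9% and 19.7%, and of SRSF10, at 7.36% and 8.10% against 7.62% and 7.34%, overlapped between groups. SRSF7 held 7.57% and 7.24% in controls and 6.37% and 6.70% after auxin.

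Put as a ratio, SRSF1 had 1.32 and 1.37 reads for each SRSF4 read in DLD-1 controls and 12.1 and 9.34 after auxin. With background subtracted, the ratio was 1.32 and 1.38 before and 17.2 and 18.4 after auxin. The family as a whole took 0.170% and 0.184% of all reads in the controls and 0.132% and 0.0944% after auxin. With background subtracted, it took 0.174% and 0.201% in controls and 0.204% and 0.198% after auxin, and the groups then overlapped. The make-up of the family therefore differed between the groups also where its total did not separate them.

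**Figure D4:**
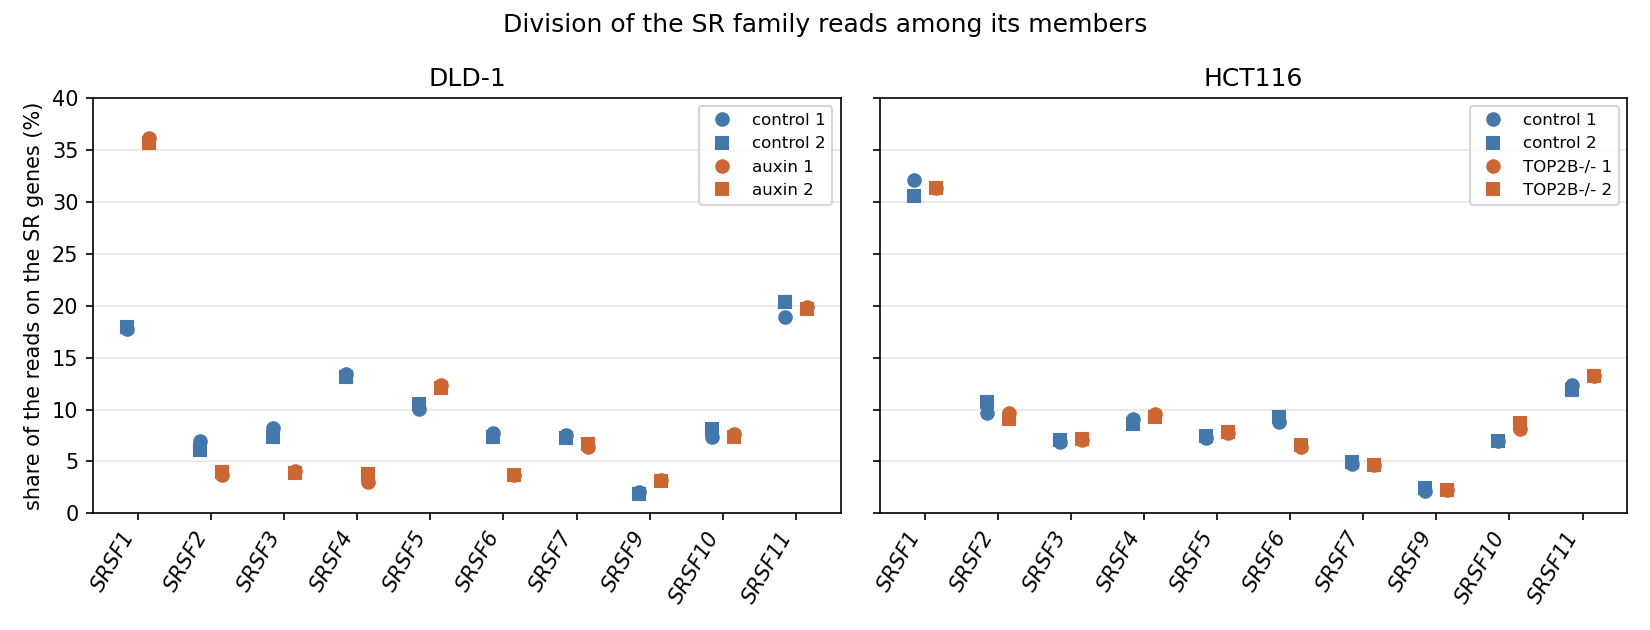
Share of the reads on the 10 SR genes held by each member, in percent and with background included, in each library of DLD-1 (left) and HCT116 (right). Circles and squares are libraries 1 and 2 of a group. SRSF1 moves from 17.7% and 17.97% to 36.1% and 35.6% with auxin in DLD-1 and SRSF4 from 13.4% and 13.1% to 2.98% and 3.82%, while in HCT116 SRSF6 goes from 8.79% and 9.27% to 6.35% and 6.55%.

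After auxin the order of levels had changed below the top. SRSF1 at 51.1 ± 14.4 and SRSF5 at 22.9 ± 6.53 CPM per kb (SD, n = 2) remained on top, and SRSF2 was at 10.9 ± 2.46. SRSF7, SRSF6, SRSF10, SRSF11, SRSF3 and SRSF9 ran from 7.53 to 3.59 CPM per kb, and each overlapped the next over its libraries. SRSF4 came last at 0.882 ± 0.0899, at the 72.9th percentile of all gene models against the 96.6th in the controls. The other members stayed at or above the 94.9th percentile. Read numbers behind the auxin values were 319 to 6784 per member and library, against 1278 to 20198 in the controls.

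SRSF8 and SRSF12 are relatives outside the 10. SRSF8, a copy of the SRSF2 coding sequence, was at 22.1 and 20.5 CPM in the DLD-1 controls and at 5.86 and 4.14 CPM after auxin, and its log2 fold change was −2.09 (adjusted p = 0.0080, edgeR). Background made up 21.1% and 42.7% of its reads after auxin. SRSF12 had 16 to 133 reads per DLD-1 library, which was 0.59 to 1.22 times the background expected over its length, so its transcription was not detectable at this depth.

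Genes that act with the SR proteins were mostly lower in DLD-1 too. Of 9 tested kinases and import factors, 8 were called lower and 1 higher, with a median of −1.35. CLK4, a kinase of SR proteins, was at −2.89, PRPF4B at −2.03 and CLK3 at −2.01. The gene called higher was SRPK3, a muscle-enriched kinase, with a log2 fold change of 2.74 from only 1 to 6 reads per library, below the background expected over its length. Background made up 49.9% and 74.1% of the CLK4 reads after auxin. With background subtracted, 5 of the 8 genes still tested were lower, 0 were higher and the median was −1.22. Of all genes in that fit, 32.1% were called lower and 27.7% higher. Of 24 tested SR-related genes, 21 were called lower and 0 higher by edgeR, with a median of −1.45, led by RSRC2 at −2.62, SCAF11 at −2.26, TRA2B, a splicing activator close to the SR proteins, at −2.23, and SON, a scaffold of nuclear speckles, at −2.21. After subtraction 14 were lower and 4 higher, with a median of −0.51.

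Of 25 tested hnRNP genes, whose products often oppose SR proteins, 15 were called lower and 0 higher by edgeR, with a median of −0.95. HNRNPD was at −2.80, HNRNPF at −2.42, HNRNPDL at −2.34 and PTBP2, the neuronal polypyrimidine tract binding protein, at −2.24. The direction of this list turned with background subtraction, which left 8 lower and 12 higher with a median of 0.26. Subtraction gave 32.1% of all genes lower and 27.7% higher. Of 21 genes of U1 and U2 snRNP and U2AF, 15 were called lower and 0 higher by edgeR, with a median of −1.14, and the largest were DHX15 at −2.29, U2AF1, which reads the 3′ splice site, at −2.26, PUF60 at −2.25 and SF3A1 at −1.76. The U2AF1 model lay at chr21:6484623-6499256, with a control level of 0.272 CPM per kb, percentile 43 of all gene models. Whether its reads stand for all U2AF1 transcription was not tested. After auxin, U2AF1 had 17 and 9 reads, at 0.237 and 0.110 times the background, and PUF60 was at 1.32 and 0.809 times. The sizes of these falls thus rest on values near or below the background. Subtraction left 6 lower and 5 higher, near the shares of all genes, with a median of −0.19 against −0.16 for all genes. All 10 factors of nonsense-mediated decay were called lower, with a median of −1.58. Among these SMG9 was at −2.52, UPF1, the helicase at the centre of the pathway, at −2.07, and SMG1, the kinase of UPF1, at −1.79. Subtraction left 7 lower and 0 higher, with a median of −0.95, and the reads of SMG9 after auxin were 1.20 and 0.803 times the background. In the lists with 0 called higher as deposited, 0 were higher at an unadjusted p under 0.05 or by DESeq2 as well. These lists were chosen with the results known, and their part in the values of the SR genes was not tested.

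In HCT116, the comparison of TOP2B-/- TOP2A-mAID cells with TOP2A-mAID controls called 0 of the 10 SR genes by edgeR, where 1.66% of 15273 tested genes were called lower and 1.75% higher. At an unadjusted p under 0.05 there were 2 members, SRSF6 and SRSF10, against 3492 of the 15273 tested genes (edgeR). DESeq2 called SRSF6 lower and SRSF10 higher, with 11.9% and 9.65% of all genes called in those directions. The member median was −0.05 and that of all tested genes 0.03. The groups did not overlap for 3 members that were lower (SRSF1, SRSF6 and SRSF7) and 2 that were higher (SRSF10 and SRSF11), against 27.6% of all genes in each direction, and the other 5 overlapped.

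SRSF6 had the largest difference of the family in HCT116. It was at 197 and 227 CPM in the controls and at 143 and 148 CPM in the TOP2B-/- group. Both control libraries were above both others, the log2 fold change was −0.55 (SE 0.085, adjusted p = 0.061, edgeR), and the pairs of libraries gave −0.67 to −0.41. The call depended on the setting, as 6 of 11 edgeR alternatives called SRSF6 lower, with adjusted p from 0.011 to 0.599. Those that called it were RLE scaling, library totals, a mean CPM of at least 5 and background subtraction, where 2%, 2.35%, 5.88% and 8.36% of all genes were called lower, and the fits without control replicate 1 or control replicate 2, with 8.32% and 1.79%. It was not called with no count filter, with all libraries in 1 fit, with a block or without either TOP2B-/- replicate. The share of SRSF6 among the family reads was 8.79% and 9.27% in controls and 6.35% and 6.55% in the TOP2B-/- group.

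The value of SRSF6 lay at the median of its chromosome. The 404 other tested genes of chromosome 20 had a median log2 fold change of −0.56, with quartiles of −0.72 and −0.29, and SRSF6 differed from that median by 0.012. Of these genes 133, or 32.9%, were called lower, and 52.7% had a lower log2 fold change than SRSF6. Medians of the other autosomes ran from −0.17 to 0.17. SRSF6 is the one member on chromosome 20, and its difference cannot be told apart from that of the chromosome.

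Of the nearest tested genes on either side of SRSF6, PTPRT was the one with a positive value. Before it, PLCG1, a phospholipase, was at −0.70, ZHX3 at −0.38, LPIN3 at −0.90, the chromatin remodeller CHD6 at −0.64 and the receptor phosphatase PTPRT at 0.34. After it, L3MBTL1 was at −0.64, the kinase SGK2 at −0.88, IFT52 at −0.54, the cell cycle factor MYBL2 at −0.58 and TOX2 at −0.66. Of these 10 genes, 6 were called lower by edgeR, namely PLCG1, ZHX3, CHD6, L3MBTL1, MYBL2 and TOX2. In DLD-1 after auxin, by contrast, the other genes of chromosome 20 had a median of 0.22 and SRSF6 lay 2.53 below it.

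**Figure D5:**
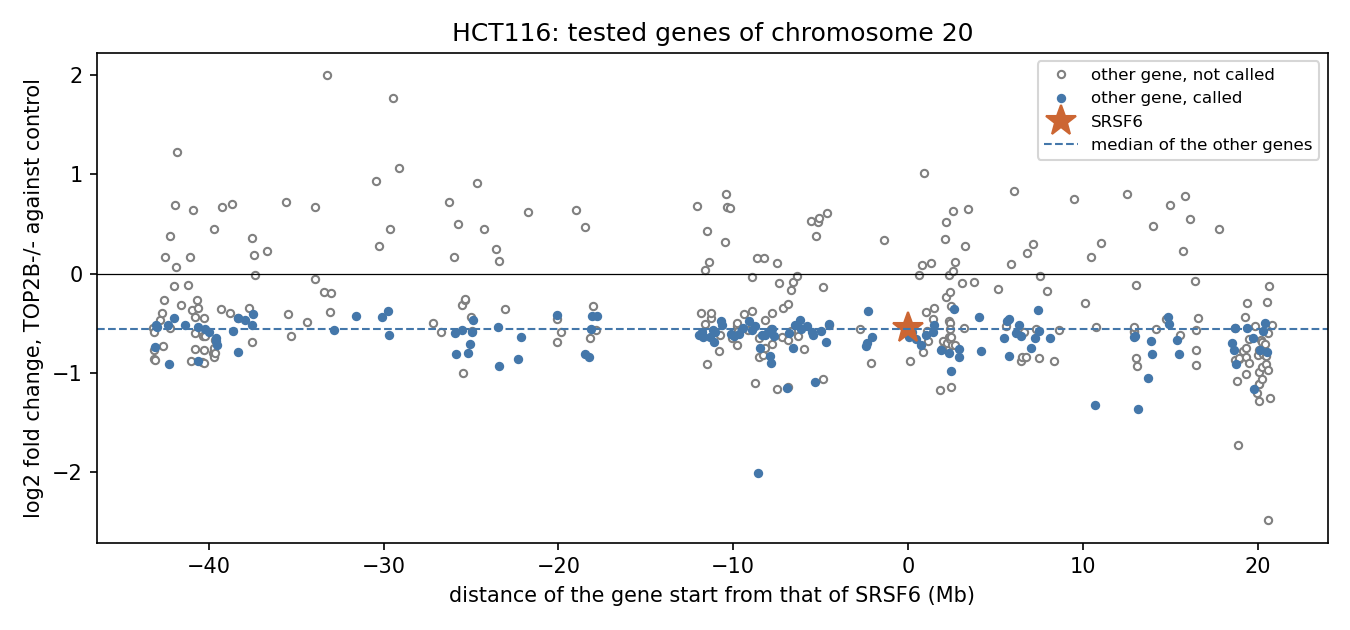
Log2 fold change in HCT116, TOP2B-/- against control, of the 405 tested genes of chromosome 20 by the distance of their starts from that of SRSF6 in Mb; filled points were called and the dashed line is the median of the other 404 genes. SRSF6, the star at −0.55, lies on that median of −0.56, and the lower values run along the whole chromosome.

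SRSF10 was at 155 and 172 CPM in the HCT116 controls and at 183 and 196 CPM in the TOP2B-/- group. The groups did not overlap, and the log2 fold change was 0.21 (SE 0.073, adjusted p = 0.210, edgeR). Its share of the family reads was 6.95% and 7.02% in controls and 8.13% and 8.68% in the other group. DESeq2 gave an adjusted p of 0.015 for this gene.

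SRSF1, at 718 and 751 CPM in the controls and 703 and 706 CPM in the TOP2B-/- group, had a log2 fold change of −0.06 (SE 0.042). SRSF2 was at 215 and 263 CPM in the controls and 218 and 205 CPM in the other group, with a log2 fold change of −0.18 (SE 0.11). Its groups overlapped, and control replicate 2 was the library that stood apart. Without control replicate 1, SRSF2 was called lower at −0.32 (adjusted p = 0.037, edgeR), in a fit that called 8.32% of all genes lower and took its spread from the TOP2B-/- libraries alone. The log2 fold changes of the remaining members were −0.12 for SRSF7, −0.10 for SRSF9, −0.04 for SRSF3, 0.02 for SRSF5, 0.03 for SRSF4 and 0.07 for SRSF11, with SE of 0.042 to 0.11.

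The control libraries of HCT116 differed more from each other than those of the TOP2B-/- group did. Across the members, the log2 CPM of the controls differed by 0.056 (SRSF4) to 0.296 (SRSF9), with replicate 2 higher in each. The libraries of the TOP2B-/- group differed by 0.0045 (SRSF1) to 0.0997 (SRSF10). The family took 0.226% and 0.239% of all reads in the controls and 0.224% and 0.230% in the TOP2B-/- group, which overlapped. Background was at most 0.427% of the reads of any member in these libraries.

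The partner lists had 1 call in HCT116 by edgeR. By edgeR 0 of 8 kinases and import factors, 0 of 24 SR-related genes, 0 of 21 genes of U1 and U2 snRNP and U2AF and 0 of 10 decay factors were called, with medians of 0.01, −0.05, −0.16 and −0.02. At an unadjusted p under 0.05 there were 1, 6, 2 and 3 of them, against 3492 of all 15273 tested genes (edgeR). DESeq2 called 1, 7, 6 and 3, in a fit that called 11.9% of all genes lower and 9.65% higher. Of 26 hnRNP genes, 1 was called lower, RALY, at −0.55 (adjusted p = 0.037, edgeR), which like SRSF6 lies on chromosome 20. At an unadjusted p under 0.05 there were 7 lower and 1 higher, and by DESeq2 8 lower and 1 higher. SRSF8 was at −0.01, and SRSF12 had 2 to 15 reads per library and was not tested.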

How the data were processed

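The deposited tables held raw read counts per RefSeq gene model, 1 table per cell line, made by the authors over whole gene spans. The submitters' processing notes name STAR, DESeq2 and hg38, and whether counting used strand is not given there. The authors also deposited tables of changed genes with fold changes and p-values, which were not used. No sample column was left unmapped. The paper supplied covers a different experiment and gave no design.

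Control and treated libraries of 1 line, 4 in all, entered each fit (2 residual degrees of freedom), made with edgeR 4.0.16 in R 4.3.3: filterByExpr, TMM, glmQLFit and glmQLFTest, two-sided, Benjamini-Hochberg adjustment over all tested genes at 0.05. SE is the absolute log2 fold change over the square root of F. The procedure was tested on simulated counts without a background difference between groups, so that test does not cover the background of the auxin libraries. Background density was the median count per base of 3111 silent gene models, the 20% of models of at least 5000 bases with the lowest density per chromosome in the other line's controls. Subtraction rounded to whole reads with a floor of 0. Alternatives were DESeq2 1.42.0, other scalings and filters, a fit over all libraries, replicates left out and the replicate number as a block.

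Members, lists and motifs were chosen with earlier results of these data known. Genes named were the 10 members, SRSF8, SRSF12, overlapping models, the 5 nearest tested genes on each side of SRSF6 and up to 4 called genes with the largest fold change per list, of which 1 is not reported here. The replicate number was not taken to pair libraries, as there were 2 pairs per line and nothing in the labels ties them. Intervals from counts would cover counting error only and are not given. Figures were drawn with matplotlib.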

Additional observations from a re-analysis of the deposited data

How the results depend on the processing

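In DLD-1, the count of members called lower stayed at 8 with DESeq2, RLE scaling, no count filter, a mean CPM of 5 or more and all 8 libraries in 1 fit. Over all genes these fits called 6000 of 17625, 5955 of 17625, 6227 of 18380, 4465 of 13446 and 5937 of 17800 lower, in that order. The count was 5 with library totals and 4 after background subtraction, where 2 were called higher. Leaving out 1 library gave member medians of −1.42 and −1.36 for the controls and −1.59 and −1.14 for the auxin libraries. The member median of −1.39 became −0.76 with library totals, −1.01 at a mean CPM of 5 or more and −0.19 after background subtraction. SRSF1 turned to 0.36, 0.11 and 1.02 under those 3 settings, SRSF9 to 0.058 with library totals and 0.58 after subtraction, and SRSF5 to 0.24 after subtraction; the causes were not tested. Over all genes the main fit called 11855, of which 6177 were lower and 5678 higher.

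In HCT116, 1 member (SRSF6) was called lower with DESeq2, RLE scaling, library totals, a mean CPM of 5 or more and background subtraction, and DESeq2 called 1 higher (SRSF10). Leaving out 1 replicate, with the lone library assumed to vary like the other group, gave 0 to 2 members called lower. Over those fits SRSF4 ran from −0.0264 to 0.0461 and SRSF5 from −0.0699 to 0.0312, and SRSF3 was 0.0089 after subtraction. Over all genes 521 were called, against 3295 with DESeq2, 1221 with a mean CPM of at least 5, 2289 after subtraction, 2519 without control replicate 1, 229 with chromosome 20 left out, 5 with all 8 libraries, and 0 without either TOP2B-/- replicate.

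With the replicate block, 8 members were called lower in DLD-1, with a median of −1.41. Of all 17625 genes in that fit, 6519 were called lower and 6444 higher. In HCT116 the block left 0 members called, and 0 genes in all. The log2 difference of the first replicate from the second was taken within each group. Across genes, the differences of the control and treated groups correlated at 0.588 in DLD-1 and −0.833 in HCT116. The crossed pairing in HCT116, chosen after seeing the data, called 1 member and 1808 genes. Background was a large share of the reads of SRSF4 and SRSF8 after auxin.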
